A study of Rattus norvegicus with 15 samples.

Results

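Zfp genes encode zinc finger proteins, in which short loops of protein, each held by a zinc ion, bind DNA or RNA. They were studied here in islet cells that had received extra miR-17-5p. All genes with a symbol made of Zfp and a number were taken, which gave 164 of the 17055 genes in the count tables, and no measured value entered the choice. Of these symbols, 155 were current in RefSeq (assembly GRCr8) and 9 were older names of genes found there, among them Zfp238 (now Zbtb18), Zfp295 (now Zbtb21) and Zfp259 (now Zpr1). The older symbol Zfp978 is now Zfp772, which the tables also hold, so the symbols stand for 163 genes. No symbol made of Znf and a number was in the tables.

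Most Zfp proteins carry C2H2 fingers, each of which reads a few bases of DNA. Many also carry a KRAB domain that recruits the corepressor Trim28 and heterochromatin enzymes to silence their targets, repeated DNA included. A few do other work: Zfp36 (tristetraprolin) uses CCCH fingers to bind AU-rich elements of cytokine and growth factor transcripts and hastens their decay, and Zfp598 is a ubiquitin ligase that senses collided ribosomes. The genes often arise by duplication in clusters, and 39 of the 163 sat directly beside another one in RefSeq, as 22 neighbouring pairs such as Zfp777 with Zfp746, and Zfp26 with Zfp426.

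The cells were islet cells of 10-day-old (1.5 weeks) Sprague-Dawley rats, dispersed and transfected with a control miRNA mimic or with miR-17-5p, and no other genotype or agent is given. Each treatment was read in mRNA libraries from poly(A) RNA (3 control, 5 miR-17-5p) and in RISC libraries (3 control, 4 miR-17-5p), made from RNA pulled down with Ago2. This Argonaute protein holds the microRNA in RISC, the RNA-induced silencing complex. The labels name no poly(A) selection for the RISC libraries, so library preparation and Ago2 binding cannot be told apart between the library types. Descriptions speak of biological replicates but number them otherwise than the titles do, and all 7 RISC libraries carry the same replicate number there. P-values therefore cover the spread among libraries alone, and part of it may be technical. Pooling of animals and the transfected share of cells are not given in the labels.

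miR-17-5p guides RISC to transcripts that pair with its seed, bases 2 to 8 from the 5′ end. Its mature sequence and those of the other rat microRNAs with the same seed, which could bind the same sites, are shown from RefSeq (GRCr8) with the seed in capitals, because they define what was added to the cells. Among 724 mature entries, 6 carried this seed, in 5 distinct sequences, and miR-17-5p itself comes from 2 loci, on chromosomes 15 and X.
rno-miR-17-5p: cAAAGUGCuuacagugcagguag
rno-miR-20a-5p: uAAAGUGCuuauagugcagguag
rno-miR-20b-5p: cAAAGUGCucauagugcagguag
rno-miR-93-5p: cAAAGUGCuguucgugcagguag
rno-miR-106b-5p: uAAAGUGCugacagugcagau

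Library totals ran from 3379456 to 21056240 gene counts. Endocrine markers, led by the insulin genes, summed to between 315167 and 575764 counts per 1000000 (CPM) in mRNA libraries and to between 15175 and 30993 CPM in RISC libraries. CPM here are counts over library sizes scaled with trimmed mean of M values (TMM) factors over all 15 libraries. Stellate and fibroblast markers summed to 11403 to 20166 CPM in control mRNA and 21636 to 47334 CPM in miR-17-5p mRNA, without overlap, and 9 of 14 tested rose there. Of the other marker lists, 2 of 8 endothelial, 2 of 2 red blood cell and 1 of 5 duct markers fell in mRNA, and 1 of 7 Schwann and neural markers rose. None of 13 endocrine, 9 macrophage and leukocyte or 5 acinar markers passed with edgeR (8, 1 and 1 at an unadjusted p under 0.05). Their log2 fold changes were above 0 for 0 of 13, 9 of 9 and 4 of 5, with medians of -0.51, 0.87 and 1.03. In RISC the stellate and fibroblast markers summed to 4154 to 9378 CPM in control cells and 22493 to 25352 CPM in miR-17-5p cells. Macrophage and leukocyte markers summed to 0.159 to 93.8 CPM in control RISC and 182 to 299 CPM in miR-17-5p RISC. Acinar markers summed to 28.7 to 48.4 and 4.91 to 10.7 CPM. The sums of the other marker lists overlapped between the RISC groups. With edgeR, 5 of 14 stellate and fibroblast and 1 of 6 macrophage and leukocyte markers rose in RISC. In bulk RNA, a different number of cells of a type and a different amount of RNA per cell cannot be told apart, and the part of these markers in the results on Zfp genes was not tested.

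The control RISC libraries stood apart in how many Zfp transcripts they held. After thinning to the counts of the smallest library, 89.2, 91.5 and 72.6 of the 164 Zfp genes were expected to be detected in control RISC libraries 1, 2 and 3. In miR-17-5p RISC libraries 2, 4, 5 and 6 the numbers were 139.8, 120.2, 145.1 and 134.1. The groups did not overlap, with means of 84.4 ± 10.3 (SD, n = 3) and 134.8 ± 10.7 (SD, n = 4) and an exact two-sided permutation p = 0.0286, the smallest that 3 against 4 libraries can give. Adjusted over the 6 tests on library sums and detection the p was 0.0536. In mRNA, 150.8 ± 3.99 (SD, n = 3) genes were detected in control and 149.6 ± 7.58 (SD, n = 5) in miR-17-5p libraries (exact permutation p = 0.893, adjusted 0.893). All genes showed nearly the same pattern, with a ratio of means between the RISC groups of 1.53, against 1.60 for Zfp genes. The Zfp genes made up 1.23 to 1.38 of every 100 genes detected in each of the 15 libraries. This number did not overlap between RISC groups, with 1.30 to 1.33 in control and 1.35 to 1.38 in miR-17-5p libraries. The exact permutation p was 0.0286, the smallest possible, without adjustment. In miR-17-5p mRNA the number was 1.23 to 1.30, also below miR-17-5p RISC (exact permutation p = 0.00794, not adjusted).

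**Figure D1:**
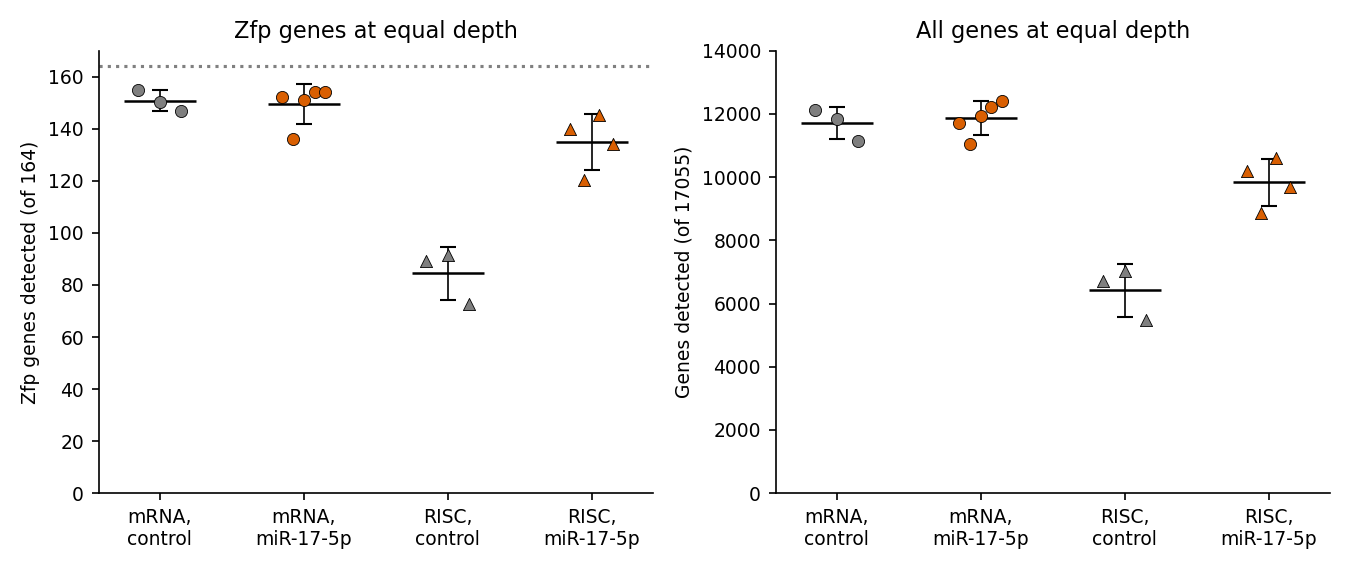
Number of Zfp genes (left, of 164) and of all genes (right, of 17055) expected to be detected in each library at equal depth. Points are libraries, bars are group means and whiskers are SD. Control RISC libraries lie lowest in both plots, with 72.6 to 91.5 Zfp genes.

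Control RISC libraries were also patchy. Of 111 Zfp genes that reached at least 100 counts in 1 control RISC library, 64 (57.7%) had 0 counts in another control RISC library, against 43.7% of all genes. In miR-17-5p RISC the number was 11 of 111 (9.91%), against 9.55% of all genes, and in both mRNA groups it was 0. Zfp143, an activator of small nuclear RNA and selenocysteine tRNA genes, shows this with 0, 21.3 and 6.38 CPM in control RISC libraries 1, 2 and 3 and 13.7 to 16.4 CPM in the 3 control mRNA libraries. Zfp217, which works with corepressor complexes, had 85.8, 0.108 and 0 CPM in control RISC against 41.5 to 58.6 CPM in miR-17-5p RISC. Zfp57, a KRAB protein that keeps imprinted DNA methylated, had 54.5, 32.2 and 0 CPM in control RISC and 5.46 to 19.8 CPM in miR-17-5p RISC. Among Zfp genes with counts in every library of a group, the median ratio of highest to lowest CPM was 1.63 in control mRNA, 1.89 in miR-17-5p mRNA, 4.08 in control RISC (48 genes) and 2.53 in miR-17-5p RISC (113 genes).

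Zfp transcripts took a larger share of the RISC libraries than of the mRNA libraries. They made up 0.298%, 0.297% and 0.279% of gene counts in control mRNA libraries 1, 2 and 3, and 0.794%, 0.724% and 0.670% in control RISC libraries 1, 2 and 3. Every control RISC library exceeded every control mRNA library, by 2.50-fold in the means (0.292% ± 0.0107 and 0.730% ± 0.0621, SD, n = 3 each), and the exact two-sided permutation p was 0.1, the smallest that 3 against 3 can give (adjusted 0.12). In miR-17-5p cells the share was 0.252%, 0.279%, 0.251%, 0.270% and 0.275% in mRNA libraries 1, 2, 4, 5 and 6, and 0.536%, 0.498%, 0.489% and 0.319% in RISC libraries 2, 4, 5 and 6. The RISC libraries were again all higher, by 1.74-fold in the means (0.265% ± 0.0131, SD, n = 5, and 0.460% ± 0.0967, SD, n = 4), with an exact permutation p = 0.00794, the smallest possible, and 0.0476 after adjustment over the 6 tests. Without the insulin genes Ins1 and Ins2 and the ribosomal RNA gene Rn45s in the total, the ratios were 1.97 in control and 1.51 in miR-17-5p cells. With library sizes scaled by TMM factors they were 1.67 and 1.35.

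Between treatments the share was lower with miR-17-5p in both library types, and neither difference passed after adjustment. In mRNA the highest miR-17-5p library (0.2789%) lay just under the lowest control library (0.2792%), a ratio of means of 0.909 (exact permutation p = 0.0357, adjusted 0.0536). In RISC the ratio was 0.631 (exact permutation p = 0.0286, the smallest possible, adjusted 0.0536). A single gene, Zfp9, held 16.0%, 35.7% and 3.68% of all Zfp counts in control RISC libraries 1, 2 and 3, and 2.18% to 3.23% in miR-17-5p RISC. Without Zfp9, chosen after its values were seen, the ratio was 0.755 in RISC (exact permutation p = 0.2) and 0.934 in mRNA (exact permutation p = 0.143), and the RISC libraries of the 2 treatments overlapped.

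**Figure D2:**
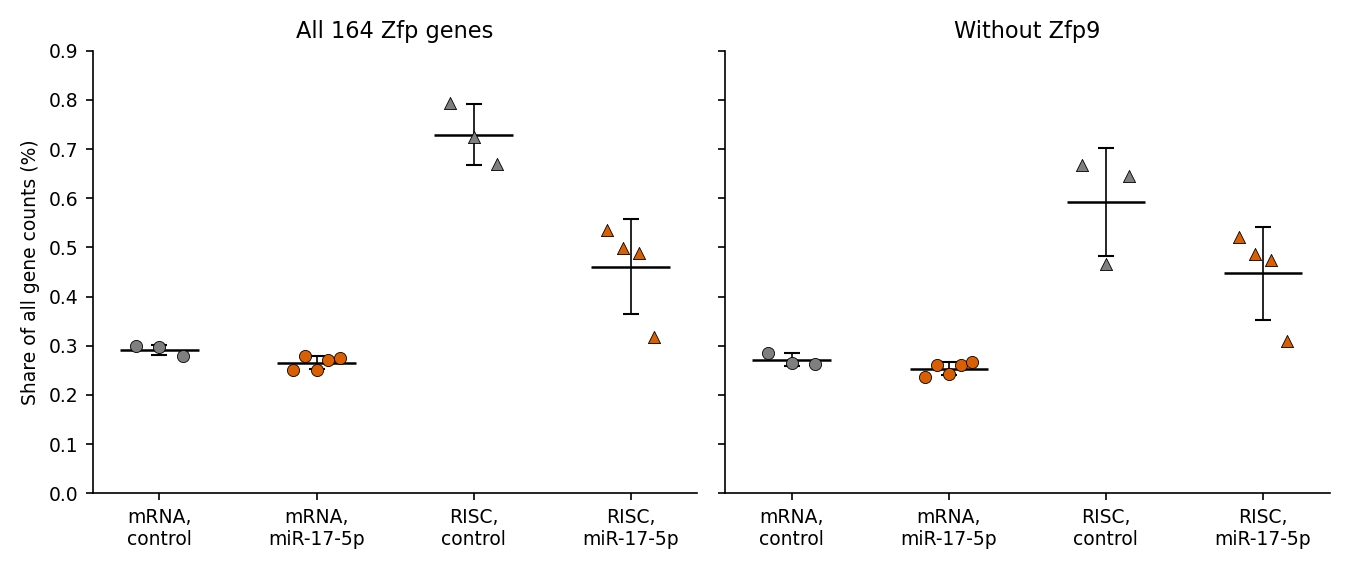
Share of all gene counts taken by Zfp genes in each library, with all 164 genes (left) and without Zfp9 (right). Points are libraries, bars are group means and whiskers are SD. RISC libraries lie above mRNA libraries of the same treatment in both plots, and the gap between control and miR-17-5p RISC is smaller without Zfp9.

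In mRNA, adding miR-17-5p left nearly all Zfp genes within the spread between libraries. Of 148 Zfp genes tested with edgeR's quasi-likelihood test (Benjamini-Hochberg adjusted p under 0.05 over all genes), 1 rose, where 3.11% of all genes rose, and 0 fell, where 0.767% of all genes fell. At an unadjusted p under 0.05, 4 were higher and 5 lower. DESeq2 called 2 higher and 0 lower, and limma-voom 0 higher and 2 lower. Counts of all genes were not set beside these or the unadjusted counts, so they do not mark out Zfp genes. The median log2 fold change was -0.08 over the Zfp genes and 0.01 over all genes tested, with 90 of the 148 below 0. Of all genes 49.3% were below 0. Between -0.5 and 0.5 lay 81.1% of the Zfp genes and 70.7% of all genes.

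The gene that rose was Zfp566. It had 18.8, 19.1 and 16.0 CPM in control mRNA libraries 1, 2 and 3, and 29.9, 44.6, 40.6, 30.8 and 23.8 CPM in miR-17-5p mRNA libraries 1, 2, 4, 5 and 6. All 5 miR-17-5p libraries lay above all 3 control libraries. The log2 fold change was 0.91 ± 0.23 (SE), with an edgeR adjusted p of 0.0470. The call is close to the threshold: it held without miR-17-5p mRNA library 1 or 6 (adjusted p 0.0341 and 0.0388) and was lost without each of the 3 control libraries or miR-17-5p library 2, 4 or 5, with adjusted p up to 0.166. With limma-voom the log2 fold change was 0.65 and the call was lost too (adjusted p 0.0814).

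Zfp189 and Zfp365 came next by p and did not pass with edgeR. The DESeq2 Wald test called Zfp189 (adjusted p 0.0111) but not Zfp365 (adjusted p 0.0824). With limma-voom neither passed (adjusted p 0.119 and 0.147). Zfp189 had 0.985, 0.435 and 0 CPM in control mRNA and 2.33 to 7.58 CPM (median 2.80) in miR-17-5p mRNA, a log2 fold change of 2.82 ± 0.87 (SE) at an edgeR adjusted p of 0.0945. Its control levels are near the 3-count floor of those libraries (0.328 to 1.07 CPM). Zfp365, a protein known as a partner of DISC1, had 8.21, 4.64 and 2.85 CPM in control and 9.23 to 15.3 CPM (median 11.0) in miR-17-5p mRNA, with a log2 fold change of 1.06 ± 0.37 (SE) and an edgeR adjusted p of 0.139. The groups of both genes did not overlap. Across the 148, 5 genes had every miR-17-5p library above every control library and 4 had every one below, which is 3.38% and 2.70% of them. Among all genes tested 8.42% and 6.64% did so, while edgeR called 3.11% and 0.767% of all genes.

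Zfp36, the tristetraprolin gene, did not pass in mRNA. Its levels were 69.7, 68.7 and 58.4 CPM in control mRNA and 58.5, 69.5, 53.3, 42.3 and 38.2 CPM in miR-17-5p mRNA libraries 1, 2, 4, 5 and 6. Groups overlapped, with the 3 lowest libraries all in the miR-17-5p group. Zfp36 is an immediate early gene as well as a decay factor, and of 15 other immediate early genes tested in the same libraries 3 fell: Egr1, a C2H2 transcription factor, by 1.21 ± 0.22 (SE, edgeR adjusted p = 0.0109), Fos by 1.14 ± 0.27 (SE, adjusted p = 0.0351) and Btg2 by 0.75 ± 0.17 (SE, adjusted p = 0.0270) on the log2 scale. None of the 22 KRAB corepressor and heterochromatin genes, 12 genes of AU-rich element decay, 32 Zbtb genes or 15 Zc3h genes tested passed in mRNA in either direction with edgeR. At an unadjusted p under 0.05 there were 4, 1, 3 and 0.

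Among the Zfp genes chosen for a known function, Zfp217 alone did not overlap between the mRNA groups. It had 13.4, 13.6 and 12.1 CPM in control and 14.8 to 27.9 CPM in miR-17-5p mRNA, and did not pass. The others overlapped or had 0 counts. Zfp207, a kinetochore and spindle protein, had 64.0 to 80.0 CPM in control and 45.9 to 73.7 CPM in miR-17-5p mRNA. Zfp91, a ubiquitin ligase of noncanonical NF-kB signalling, had 51.8 to 72.3 and 52.8 to 69.6 CPM. Zfp346, which binds double-stranded RNA, had 14.6 to 32.0 and 18.8 to 25.3 CPM, and Zfp622, a factor of large ribosomal subunit maturation, 20.6 to 33.1 and 23.3 to 29.1 CPM. Zfp521 and Zfp423, a pair of related partners of early B cell factors, had 6.41 to 10.5 and 6.11 to 14.8 CPM, and 0.712 to 3.19 and 0 to 5.51 CPM. Zfp703 and its relative Zfp503, both NET family corepressors, had 7.83 to 14.6 and 8.75 to 18.1 CPM, and 10.4 to 17.7 and 8.69 to 18.9 CPM. Zfp260 had 0 counts in all 15 libraries, as did 4 other Zfp genes, whereas 133 had counts in all 8 mRNA libraries.

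**Figure D3:**
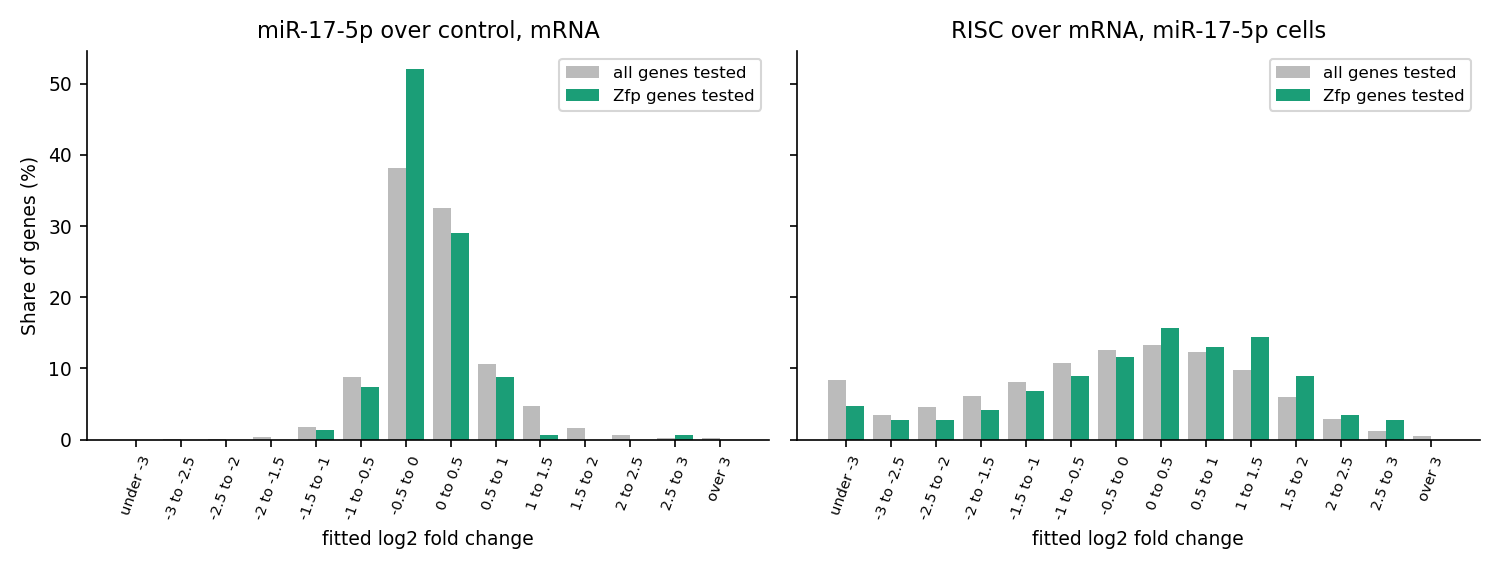
Share of genes in each bin of fitted log2 fold change, for Zfp genes (green) and all genes tested (grey), for miR-17-5p over control in mRNA (left; 148 Zfp genes) and RISC over mRNA in miR-17-5p cells (right; 146 Zfp genes). In the left plot 81.1% of Zfp genes and 70.7% of all genes lie between -0.5 and 0.5, and in the right plot 27.4% and 25.9%.

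In RISC, no Zfp gene passed between treatments. Of 135 tested, 0 were called higher, with 0.339% of all genes, and 0 lower, with 0.0318% of all genes, by edgeR. At an unadjusted p under 0.05, 19 were higher and 5 lower, DESeq2 called 16 higher and 4 lower (1315 and 221 of all genes), and limma-voom called 0 in each direction (17 and 3 of all genes). Without control RISC library 2 edgeR called 15 higher and 2 lower (1163 and 62 of all genes), and without miR-17-5p RISC library 4 it called 7 higher and 0 lower (540 and 8 of all genes). Without control RISC library 1 it called 1 higher, and without control RISC library 3 it called 1 higher and 1 lower. Counts of all genes were not set beside these last leave-outs or the unadjusted counts, so they do not mark out Zfp genes. The median log2 fold change was 0.04 over Zfp genes, or -0.04 with DESeq2 size factors, and 0.27 over all genes tested.

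The 3 Zfp genes with the smallest p in RISC were Zfp9, Zfp36 and Zfp496, each at an edgeR adjusted p of 0.0725. The DESeq2 Wald test called all 3 (adjusted p 2.49e-05, 1.40e-06 and 1.69e-11). With limma-voom none passed (adjusted p 0.0668, 0.298 and 0.298). Zfp9 had 950, 2415 and 165 CPM in control RISC libraries 1, 2 and 3, and 128, 92.1, 136 and 104 CPM in miR-17-5p RISC libraries 2, 4, 5 and 6. All control libraries lay above all miR-17-5p libraries, and control library 2 was 14.7 times control library 3. The log2 fold change was -3.34 ± 0.69 (SE). It was -2.23 without control RISC library 2 (adjusted p 0.0483) and -3.88 without control RISC library 3 (adjusted p 0.00921). In mRNA, Zfp9 also had its highest level in control library 2 (391 CPM), with 137 and 195 CPM in the other control libraries and 94.8 to 192 CPM in miR-17-5p libraries.

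Zfp36 was the steadiest of these. It had 252, 275 and 258 CPM in control RISC and 158, 115, 128 and 122 CPM in miR-17-5p RISC libraries 2, 4, 5 and 6. The groups did not overlap, and the highest control RISC library was 1.09 times the lowest control RISC library. The log2 fold change was -0.98 ± 0.22 (SE), and it ran from -1.08 to -0.93 with each library left out, with edgeR adjusted p from 0.0426 (without control RISC library 2) to 0.113. Zfp496, a partner of the histone methyltransferase Nsd1, had 0 counts in all 3 control RISC libraries and 19.3, 37.2, 21.2 and 21.2 CPM in miR-17-5p RISC. That is at least 76.5-fold higher against a floor of 3 counts per control library, which covers counting error only and not patchy detection. The Zfp496 call changed to passing without control RISC library 2 or 3, with adjusted p 0.0386 and 0.0493.

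**Figure D4:**
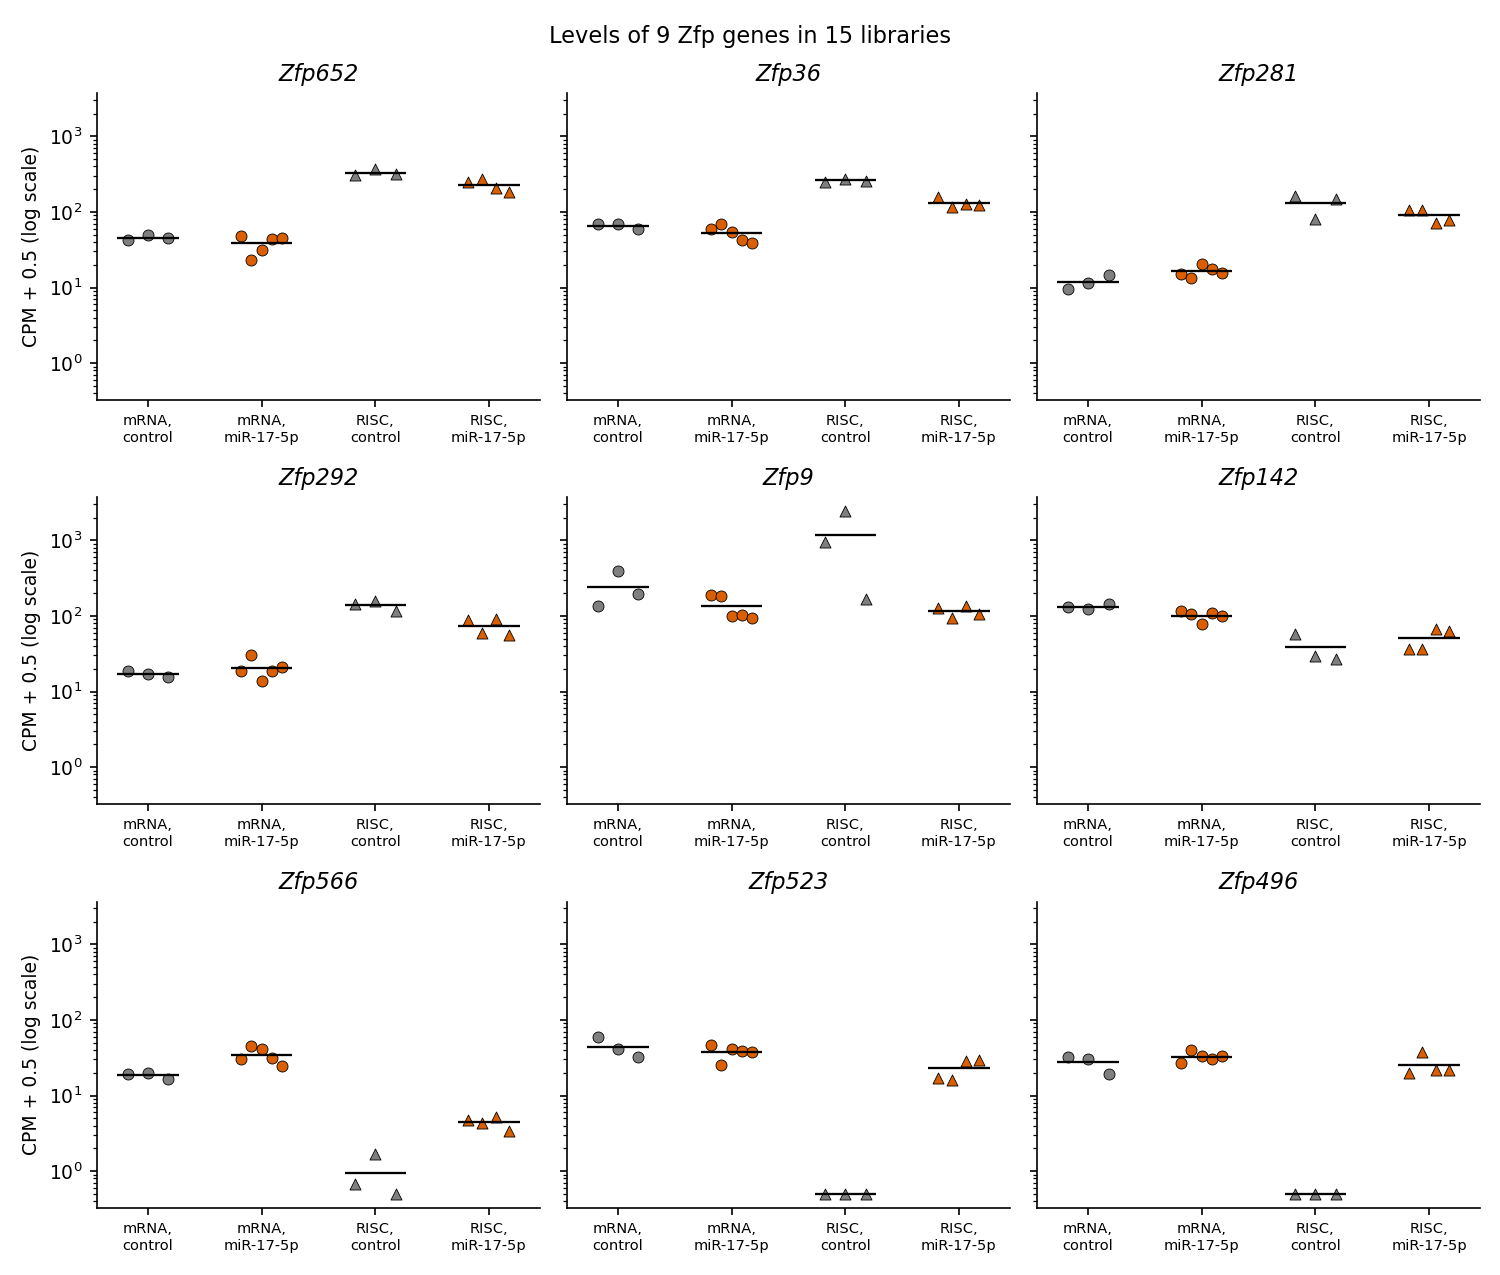
Levels of 9 Zfp genes in all 15 libraries, as CPM plus 0.5 on a log axis. Grey points are control and orange points miR-17-5p libraries, circles are mRNA and triangles RISC, and bars are group means. Zfp652, Zfp36, Zfp281 and Zfp292 lie higher in RISC than in mRNA in every library, Zfp142 lower, and Zfp523 and Zfp496 are at 0 in all 3 control RISC libraries.

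RISC libraries were compared with mRNA libraries of the same treatment to see which Zfp transcripts were over- or underrepresented on Ago2. In control cells, 133 Zfp genes were tested, of which 10 were higher in RISC, with 5.96% of all genes called, and 20 lower, with 22.3% of all genes called (edgeR). In miR-17-5p cells, 146 were tested, of which 33 were higher, with 21.7% of all genes called, and 18 lower, with 21.8% of all genes called. The median log2 ratio of RISC over mRNA was 0.11 for Zfp genes and -0.69 for all genes in control cells, and 0.20 and -0.15 in miR-17-5p cells. With DESeq2 size factors the Zfp median in control cells turned to -0.07, with -0.87 for all genes, and in miR-17-5p cells it was 0.09, with -0.26 for all genes. With genes at 0 placed at their bound the Zfp medians stayed 0.11 and 0.20. This step could not have moved them, since such genes lie below 0 either way. The shares of Zfp genes called were 7.52% and 15% in control cells and 22.6% and 12.3% in miR-17-5p cells. No library is shared between both comparisons. Each fit takes a common spread per gene over mRNA and RISC libraries. Fitted alone, the coefficient of variation was 0.305 among mRNA and 1.23 among RISC libraries. The SEs and p-values of RISC over mRNA may therefore be too small.

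All 10 Zfp genes higher in RISC in control cells were also higher in miR-17-5p cells, which is 100% of the first list and 32.3% of the 31 genes of the second that were tested in both. Among all genes tested in both, the corresponding shares were 96.7% and 25.2%. Zfp652, a repressor that works with the corepressor Cbfa2t3, had 41.6, 49.6 and 44.1 CPM in control mRNA and 306, 371 and 317 CPM in control RISC. In miR-17-5p cells it had 47.8, 22.5, 31.0, 43.1 and 44.5 CPM in mRNA and 251, 269, 209 and 182 CPM in RISC. No RISC library overlapped with an mRNA library. The log2 ratios were 2.88 ± 0.19 (SE, edgeR adjusted p = 0.00428) in control and 2.75 ± 0.23 (SE, adjusted p = 3.98e-06) in miR-17-5p cells.

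Zfp281, which binds GC-rich promoters and is known from pluripotent cells, had 8.98, 11.0 and 14.2 CPM in control mRNA and 160, 79.6 and 149 CPM in control RISC. In miR-17-5p cells it had 12.7 to 19.8 CPM in mRNA and 71.2 to 107 CPM in RISC. Its log2 ratios were 3.51 ± 0.45 (SE, edgeR adjusted p = 0.00817) and 2.67 ± 0.21 (SE, adjusted p = 2.33e-06). Its close relative Zfp148 passed in miR-17-5p cells, with 24.3 to 33.3 CPM in mRNA and 57.7 to 97.6 CPM in RISC, a log2 ratio of 1.58 ± 0.20 (SE, edgeR adjusted p = 7.59e-05). In control RISC Zfp148 ranged from 47.9 to 144 CPM, above the 27.7 to 35.8 CPM of control mRNA, and did not pass.

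Zfp36 was among the 10 too, with log2 ratios of 2.00 ± 0.19 (SE, edgeR adjusted p = 0.00725) in control and 1.49 ± 0.20 (SE, adjusted p = 1.06e-04) in miR-17-5p cells. Every RISC library (115 to 275 CPM) lay above every mRNA library (38.2 to 69.7 CPM). Of 12 genes of AU-rich element decay tested, 4 were higher in RISC in control and 7 in miR-17-5p cells, where 5.96% and 21.7% of all genes were called. The other 8 and 5 did not pass, and 3 of the 12 had a ratio below 0 in each treatment. Those higher included the roquin gene Rc3h2 (log2 ratio 3.91 ± 0.51 and 3.01 ± 0.26, SE), the decapping gene Dcp1a (3.26 ± 0.32 and 2.32 ± 0.25) and Tnrc6a, which encodes the GW182 scaffold that binds Argonaute (1.97 ± 0.23 and 2.17 ± 0.16). Zfp292, a large protein known as a growth hormone gene regulator of the pituitary, had 15 to 18.1 CPM in control mRNA and 117 to 155 CPM in control RISC, and 13.1 to 30.2 and 54.8 to 89.6 CPM in miR-17-5p cells. These levels gave log2 ratios of 3.07 ± 0.30 (SE, edgeR adjusted p = 0.00791) and 2.03 ± 0.28 (SE, adjusted p = 1.25e-04).

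The other 6 of the 10 included partners of known complexes. Zfp532 and Zfp592, which act in a chromatin complex with Zmynd8, had log2 ratios of 1.29 and 1.52 in control and 1.51 and 1.04 in miR-17-5p cells. Zfp644, a partner of the histone H3 lysine 9 methyltransferases Ehmt1 and Ehmt2, had 2.17 and 2.46. Zfp609, which binds the cohesin loader Nipbl, had 1.05 and 0.75, and its relative Zfp608 passed in miR-17-5p cells (1.75 ± 0.20, SE, edgeR adjusted p = 2.98e-05) but had 14.1 to 22.8 CPM in control mRNA and 16.3 to 28.4 CPM in control RISC, with overlap. Zfp516, an activator of brown fat genes, had 1.60 and 1.75, and Zfp275 1.41 and 2.17. The SEs of these 6 were 0.22 to 0.46 in control and 0.18 to 0.27 in miR-17-5p cells, and their edgeR adjusted p ran from 0.0148 to 0.0434 and from 5.61e-06 to 0.0167. Each of the 10 genes had counts in all 15 libraries. In control cells the calls of Zfp652, Zfp36, Zfp292 and Zfp281 held with each library left out. The other 6 were lost without control mRNA library 1 or 2, and all but Zfp644 and Zfp609 also without library 3, with adjusted p up to 0.171. Zfp592 was lost without control RISC library 2 as well. The count of genes higher was 4, 4 and 6 without control mRNA library 1, 2 or 3 and 13, 15 and 20 without control RISC library 1, 2 or 3. Counts of all genes were not set beside these, so the shifts do not mark out Zfp genes.

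In miR-17-5p cells 26 of the 33 genes higher in RISC were called with each library left out. They include Zfp217 (1.56 ± 0.25, SE, edgeR adjusted p = 4.29e-04), Zfp238, which is the neural repressor Zbtb18 (1.59 ± 0.32, SE, adjusted p = 0.00176) and Zfp362 (2.09 ± 0.22, SE, adjusted p = 1.96e-05). Zfp238 had 9.89 to 36.2 CPM in miR-17-5p mRNA and 61.4 to 81.1 CPM in RISC, without overlap. In control RISC it had 81.0, 23.5 and 0.319 CPM, spread over both sides of the control mRNA range of 18.2 to 37.0 CPM. Zbtb genes, the BTB-domain relatives to which Zfp238 and Zfp295 now belong, were higher in RISC for 12 and lower for 1 of 32 tested in miR-17-5p cells, and for 4 and 3 of 29 in control cells, with medians of 1.01 and 1.11. Among KRAB corepressor and heterochromatin genes, 9 were higher and 4 lower of 22 in miR-17-5p cells, and 2 and 2 of 21 in control cells. Beside both lists, 21.7% of all genes were higher and 21.8% lower in miR-17-5p cells, with a median of -0.15. In control cells 5.96% and 22.3% were, with a median of -0.69. Dnmt3a, a DNA methyltransferase, was higher in both (log2 ratio 1.88 ± 0.20 in control and 2.09 ± 0.24 in miR-17-5p cells, SE).

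The share of Zfp genes higher in RISC varied with their level. Genes were split into 3 groups by mean mRNA level, equal in size among genes tested in miR-17-5p cells only. The highest group, above 39.0 CPM, held 21 Zfp genes. In control cells 33.3% of them were higher in RISC, against 9.74% of all genes in that group, and in miR-17-5p cells 52.4%, against 28%. In the middle group, 5.36% of 56 in control cells and 23.2% of 56 in miR-17-5p cells were higher, against 5.83% and 26.1% of all genes. In the lowest group, 0% of 56 tested in control cells and 13.0% of 69 in miR-17-5p cells were higher, against 1.43% and 11.1% of all genes. Lower in RISC in control cells were 9.52%, 10.7% and 21.4% of Zfp genes in the highest, middle and lowest group. Of all genes 11.5%, 18.3% and 40.5% were. In miR-17-5p cells these shares were 19.0%, 16.1% and 7.25% of Zfp genes, and 38.9%, 17.9% and 8.58% of all genes. The mRNA level is also the denominator of the ratio, and low counts limit what can be called. CPM are not corrected for transcript length, which is not among the values used here, so the grouping by CPM mixes level with length.

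Lower values in RISC were mostly zeros in control cells. Of the 20 Zfp genes lower in control RISC, 14 had 0 counts in all 3 control RISC libraries, 5 in some of them, and 1, Zfp142, had counts in every library. Zfp142 had 130, 124 and 143 CPM in control mRNA and 57.5, 29.2 and 26.5 CPM in control RISC, and 76.6 to 115 and 36.1 to 67.3 CPM in miR-17-5p cells. Neither treatment showed overlap between its mRNA and RISC libraries. The log2 ratios were -1.81 ± 0.40 (SE, edgeR adjusted p = 0.0183) and -0.82 ± 0.24 (SE, adjusted p = 0.0148), the first of which was lost without any 1 of the 3 control mRNA libraries (adjusted p up to 0.0835). On genes averaging 50 counts or more, 7 Zfp genes were called lower in control cells, and 807 of all genes. A block on the titles' replicate numbers, whose pairing is not known, kept 0 of the 20 calls lower and 4 of the 10 higher. The count of genes lower in control cells was 11, 12 and 17 without control mRNA library 1, 2 or 3 and 43, 45 and 37 without control RISC library 1, 2 or 3. Here too, counts of all genes were not set beside them.

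For genes at 0 the fold is a lower bound for counting error only, taken against a floor of 3 counts in each control RISC library, on average 0.323 CPM. It does not cover the patchy detection there, where 64 of 111 Zfp genes reaching 100 counts in a library had 0 in another. Zfp523, a relative of Zfp143, had 59.2, 40.7 and 32.0 CPM in control mRNA and was at least 136-fold lower in control RISC. Zfp330, a nucleolar protein, had 36.9, 32.5 and 54.5 CPM and was at least 128-fold lower, and Zfp496, with 32.0, 30.2 and 18.5 CPM, at least 83.2-fold lower. These 3 calls were lost without any 1 of the 3 control mRNA libraries, with adjusted p up to 0.0872, 0.0820 and 0.0895. In miR-17-5p RISC all 3 had counts in all 4 libraries: Zfp523 had 15.3 to 29.3 CPM, Zfp330 2.94 to 11.0 CPM and Zfp496 19.3 to 37.2 CPM. Of these, Zfp330 was lower than in mRNA there too, with a log2 ratio of -2.44 ± 0.38 (SE, edgeR adjusted p = 3.36e-04).

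In both treatments 7 Zfp genes were lower in RISC, 35% of the control list and 41.2% of the 17 miR-17-5p genes tested in both, against 37.7% and 36.4% among all genes. They were Zfp142, Zfp330, Zfp347, Zfp691, Zfp428, Zfp213 and Zfp579, of which only Zfp142 had counts in all 3 control RISC libraries. Zfp598, the ribosome collision ligase, was lower in miR-17-5p RISC, with 75.5 to 108 CPM in mRNA and 17.8 to 59.5 CPM in RISC (log2 ratio -1.17 ± 0.30, SE, edgeR adjusted p = 0.00713). In control RISC it had 31.9, 0.216 and 52.1 CPM, all below the 94.3 to 104 CPM of control mRNA, and did not pass. Zfp259, the translation elongation factor partner Zpr1, was lower as well (25.3 to 47.8 CPM in mRNA, 1.76 to 13.9 CPM in RISC, log2 ratio -2.03 ± 0.54, SE, edgeR adjusted p = 0.00963), as was Zfp513, a gene needed in the retina (28 to 59.8 and 6.64 to 14.8 CPM, log2 ratio -2.08 ± 0.31, SE, adjusted p = 2.26e-04). Zfp566, the gene that rose in mRNA, was low in RISC of both treatments, with 0.167, 1.19 and 0 CPM in control RISC and 4.19, 3.87, 4.77 and 2.94 CPM in miR-17-5p RISC. Its log2 ratio in miR-17-5p cells was -2.92 ± 0.34 (SE, edgeR adjusted p = 3.59e-05). The miR-17-5p count of 18 genes lower was 11 without mRNA library 1, 4, 5 or 6 and 13 without library 2, again without counts of all genes beside it.

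**Figure D5:**
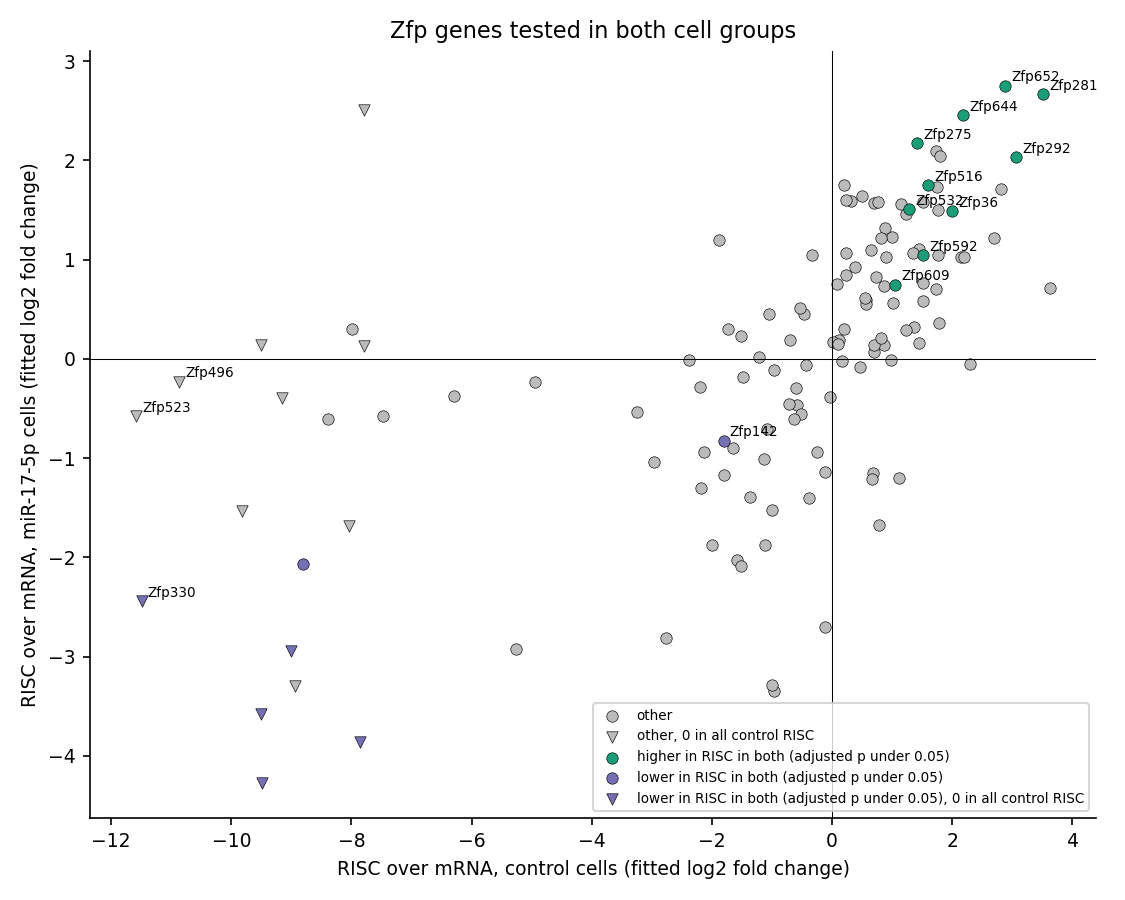
Fitted log2 ratio of RISC over mRNA for the 132 Zfp genes tested in both treatments, in control cells (x axis) and miR-17-5p cells (y axis). Green points passed as higher and purple points as lower in both, and downward triangles had 0 counts in all 3 control RISC libraries, for which the fitted value on the x axis is no bound. The 10 named green genes lie in the upper right, and 111 of 132 genes have the same sign in both.

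Across the 132 Zfp genes tested in both treatments, the log2 ratios correlated with Pearson's r = 0.574 and Spearman's rho = 0.703, against 0.578 and 0.706 over 10055 genes. These are correlations across genes, which are not independent replicates, and both axes share the difference in library type. The same sign was found for 111 of the 132.

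The change with miR-17-5p in RISC was then set against that in mRNA in a model of all 15 libraries. Of 152 Zfp genes tested, 18 had a RISC change above the mRNA change, with 13% of all genes called (edgeR). For 0 it was below, with 0.394% of all genes called. Changes are signed, so below includes a larger fall in RISC. The model takes a common spread per gene over all libraries. Fitted alone, the coefficient of variation was 0.305 among mRNA and 1.23 among RISC libraries, so these p-values may be too small. At an unadjusted p under 0.05, 32 were above and 5 below, without counts of all genes beside them. DESeq2 called 26 and 3 (1965 and 248 of all genes). limma-voom called 0 Zfp genes and 0 of all genes in each direction, and the median of the fitted difference was 0.11 over Zfp genes and 0.40 over all genes. With DESeq2 size factors these were -0.03 and 0.27. Leaving out control RISC library 1 or 2 gave 34 and 33 above (2320 and 2765 of all genes, against 1488 with every library). Leaving out control RISC library 3 or miR-17-5p RISC library 4 gave 1 below each.

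These 18 genes were largely those at 0 in control RISC. A pattern of 0 in all 3 control RISC libraries and counts in all 4 miR-17-5p RISC libraries was held by 7 Zfp genes (4.27%), against 3.59% of all genes, and all 7 are among the 18. The opposite pattern was held by 0. The first pattern by itself gives a large fitted difference, so these 7 calls were close to set in advance. How many of all genes with that pattern were called was not counted, so the 7 do not mark out Zfp genes. Zfp523 had 25.2 to 46.7 CPM in miR-17-5p mRNA against 32.0 to 59.2 CPM in control mRNA, with overlap, and was at least 69.4-fold higher in miR-17-5p RISC than in control RISC (edgeR adjusted p of the difference 3.62e-05). Zfp800, a repressor known from gut endocrine cells, had 7.42 to 12.8 CPM in miR-17-5p RISC, at least 30.9-fold above control RISC, and 0.580 to 7.83 and 1.89 to 5.42 CPM in control and miR-17-5p mRNA. Zfp386 was at least 27-fold higher, Zfp330 at least 19.1-fold, Zfp423 at least 15.4-fold and Zfp105 at least 14.4-fold. These bounds cover counting error only and not the patchy detection in control RISC. Zfp777, with 0.389, 0 and 0.159 CPM in control RISC and 17.8 to 28.2 CPM in miR-17-5p RISC, also passed (adjusted p = 2.79e-04), at 31.0 to 39.6 CPM in control and 28.7 to 48.1 CPM in miR-17-5p mRNA. The control RISC libraries held fewer detected genes of every kind, as given above, and the part of this in the 18 calls was not tested.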

How the data were processed

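The deposited files hold raw counts per gene symbol for 15 libraries, which the authors made before deposit. Reads were aligned to rn5, and TopHat2 2.0.10, Bowtie2 and HTSeq are named per the submitters' processing notes, as are DESeq and edgeR without a role. RNA was taken with Trizol, and libraries were single-end and carried no strand, per the labels' protocols, so a gene and an overlapping antisense gene cannot be told apart. The summary lines stayed out of library sizes. They held 15.0% to 31.2% of a library as alignments that were not unique and 0.151% to 0.454% as ambiguous. Zfp genes share finger sequences with near copies, so their counts may be incomplete. No 2 libraries of a group were alike (chi-square per degree of freedom 6.78 to 323).

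Groups came from sample titles. Testing across genes used edgeR 4.0.16 in R 4.3.3 (TMM factors, filterByExpr, robust quasi-likelihood F-tests, two-sided, Benjamini-Hochberg adjusted p under 0.05 over all genes), fitted on the whole table and on the groups compared. An adjusted p without a tool's name is edgeR's. Single values per library were compared by exact two-sided permutation over libraries. Detection at equal depth is the hypergeometric expectation at 3379456 counts. Folds against a group at 0 use a floor of 3 counts per library, and floors cover counting error only. The scripts were tested on simulated data with a common spread, below that of the RISC libraries, and without patchy detection. This does not cover how the fits behave on the RISC data.

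The members and gene lists were chosen with earlier results of these data known. Named Zfp genes were, per comparison and direction, the 8 called with the smallest p (the 3 with the smallest p where fewer than 3 were called), the 10 with the highest mean mRNA CPM, and genes of known function. Non-members were up to 4 per list by p. Outside this rule, Zfp213 and Zfp579 complete a list of 7, and the genes whose changes differed between RISC and mRNA are listed in full in the closing section. The alternatives comprised DESeq2 1.42.0 (size factors, Wald test), scaling by upper quartiles, tests without a filter or on genes averaging 50 counts or more, limma-voom (limma 3.58.1) with quality weights, a replicate block and each library left out. Protein features and miR-17-5p target sites were not analysed here, and the deposited summary tables of the series were not used here.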

Additional observations from a re-analysis of the deposited data

Results flagged for a closer look

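Among 118 groups of 4 or 5 libraries tested for a library far from the others, 9 had one, where chance gives about 1 in 20. Of these, 6 concern miR-17-5p mRNA library 2. In that library 136.2 Zfp genes were expected at equal depth, against 151.2 to 154.2 in the other 4. Zfp105 was at 0.948 CPM there (others 5.19 to 6.76), Zfp263 at 1.76 CPM (others 13.1 to 14.9), Zfp207 at 45.9 CPM (others 65.8 to 73.7), Zfp608 at 14.9 CPM (others 18.1 to 18.8), and Zfp395 was highest at 107 CPM (others 65.9 to 73.3). Zfp503 was lowest in miR-17-5p mRNA library 1 at 8.69 CPM (others 17.3 to 18.9). In miR-17-5p RISC, Zfp112 was at 2.29 CPM in library 2 and at 0 in the other 3, and Zfp496 was at 37.2 CPM in library 4 (others 19.3 to 21.2).

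The change with miR-17-5p differed between RISC and mRNA for 18 Zfp genes by the interaction term of edgeR, with the RISC change above the mRNA change in each. The fit takes a common spread per gene over both library types, so its p-values may be too small. Adjusted p were 3.62e-05 for Zfp523, 5.48e-05 for Zfp496, 1.81e-04 for Zfp330, 2.79e-04 for Zfp777, 2.94e-04 for Zfp386, 4.82e-04 for Zfp133 and 9.25e-04 for Zfp800. They were 0.00282 for Zfp105, 0.00492 for Zfp35, 0.00811 for Zfp579, 0.0154 for Zfp524, 0.0185 for Zfp511, 0.0195 for Zfp763 and 0.0204 for Zfp956. They were 0.0255 for Zfp367, 0.0327 for Zfp691, 0.0347 for Zfp786 and 0.0382 for Zfp423. With each library left out, 14 of the 18 stayed called. limma-voom called 0 of the 18, and with the replicate block 7 stayed.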

How the results depend on the processing

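In mRNA, the DESeq2 Wald test called 2 Zfp genes higher, limma-voom 0 higher and 2 lower, and the replicate block 0 higher (0 of all genes), and leaving out each library gave 0 to 1 higher. In RISC, the DESeq2 Wald test called 16 higher and 4 lower, limma-voom moved the median to 2.26 (1.89 for all genes), and leave-outs gave 0 to 15 higher, 0 to 2 lower and medians of -0.12 to 0.30. For RISC over mRNA in control cells, the count higher was 4 with the replicate block and 4 to 20 over leave-outs. The count lower was 31 with no filter, 7 at a mean of at least 50 counts, 34 with the DESeq2 Wald test, 0 with the replicate block and 11 to 45 over leave-outs. Its median was -0.30 with no filter, -0.52 with the DESeq2 Wald test, -2.55 with limma-voom, -2.15 with the replicate block and -0.63 to 0.17 over leave-outs. In miR-17-5p cells the replicate block gave 9 lower, leave-outs 11 to 23, and the median was 0.0525 with the DESeq2 Wald test, -0.0602 with limma-voom and 0.0241 with the replicate block. For the difference, 10 were higher at a mean of at least 50 counts, 0 with limma-voom, 7 with the replicate block and 15 to 34 over leave-outs. The DESeq2 Wald test gave 3 lower and leave-outs 0 to 1. Its median was -0.0307 with DESeq2 size factors, 2.12 with limma-voom, 1.36 with the replicate block and 0.0583 to 0.61 over leave-outs. Values over all genes stand beside only some of these, so the changes do not mark out Zfp genes, and their cause was not tested.

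DESeq2 size factors moved the median of all genes from -0.69 to -0.87 for RISC over mRNA in control cells, and that of Zfp genes from 0.11 to -0.07. In RISC between treatments they moved the Zfp median from 0.04 to -0.04. Scaled with TMM factors, the Zfp share in mRNA had a ratio of 0.890 (exact permutation p = 0.0714) and that in RISC 0.717. Without Zfp9 the ratios were 0.934 in mRNA (exact permutation p = 0.143) and 0.755 in RISC (exact permutation p = 0.2). Over leave-outs the share ratio ran from 0.890 to 0.922 in mRNA and from 0.597 to 0.696 in RISC, and the detection ratio from 1.49 to 1.67 in RISC, where fewer libraries allow no p under 0.0667. In mRNA the detection ratio turned from 0.992 to 1.01 without control library 1 or miR-17-5p library 2, with a lowest value of 0.980.

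Whether the titles' replicate numbers pair libraries is not known. Deviations of same-numbered libraries correlated from -0.19 to 0.05, which cannot exclude pairing with so few libraries and patchy control RISC counts. No paired analysis was possible for RISC between treatments because the groups share 1 number. Fold changes of named Zfp genes that passed kept their sign in all 1003 alternative values. Of 3273 alternative values for named Zfp genes that did not pass, 233 changed sign, which was seen before it was decided to list alternatives only for genes that passed or ranked first by p. Depth limits genes near the floor of 3 counts, 0.167 to 1.07 CPM in these libraries.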
